A study of Mus musculus with 2 samples.

Results

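The 10 genes described here take iron into the cell, store it, release it and sense it: Tfrc, Slc11a2, Slc25a37, Fth1, Ftl1, Ncoa4, Slc40a1, Hmox1, Ireb2 and Aco1. They were chosen by symbol from a list of iron genes and not by a rule on their values, though earlier results of these data were known. All 10 were found among the 31053 genes of the matrices. Their transcripts were counted in single mouse leukemia cells. AE9a, short for AML1-ETO9a, is a shortened fusion protein that drives this acute myeloid leukemia, and GFP marks the leukemia cells. Usp18 was floxed, and the recombinase UBCER-Cre works only once tamoxifen is given. Sick recipient mice received oil or tamoxifen, and GFP+ Lin- c-Kit+ cells were sorted from spleens 3 days after injections began. Each injection gave 1 library, a pool of 3 mice with no map from cells to mice, so the floxed allele and the Cre are shared by both and only the injected agent differs by design. The labels disagree on whether 1 or both alleles were floxed. The genotype and treatment labels give both, while the treatment protocol and part of the design text give 1. The libraries are therefore named by injection alone. No label gave the age of the mice.

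Cells take up iron bound to transferrin through the transferrin receptor, move it out of the endosome and into the cytosol or the mitochondrion, and keep what is not used inside ferritin shells. Iron regulatory proteins bind short RNA hairpins, the iron-responsive elements, when cytosolic iron is low. Bound before the coding region they block translation, as in the ferritin subunits, and bound behind it they protect the transcript from decay, as in the transferrin receptor. Red cell precursors are the body's largest users of iron, since every globin chain carries a heme with an iron atom, and macrophages of the spleen recover that iron from old red cells. For this reason the genes were followed both between the libraries and along the globin content of the cells.

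The hairpins that tie several of these genes to the iron regulatory proteins are shown first. Protein-coding transcripts of GENCODE M21 (GRCm38, the assembly that mm10 names) were searched on the transcript strand for an unpaired C, 5 bases, the loop CAGTGN and 5 more bases, in which the 5 bases on each side of the loop must pair, with G and T allowed as a pair. Of 58797 transcripts, 565 held a match, or 0.961%, and so did 294 of 21901 genes, or 1.34%. Among the 10 genes, Tfrc, Fth1, Ftl1 and Slc40a1 held matches, in 1 of 3, 4 of 5, 1 of 2 and 1 of 4 coding transcripts. In Tfrc all 4 matches lay in the 3′ UTR, within exon 19 of 19 on the plus strand, at chr16:32631219-32631247, chr16:32631598-32631626, chr16:32631663-32631691 and chr16:32631710-32631738. In the other 3 genes the match lay in the 5′ UTR, within exon 1, at chr19:9982732-9982760 on the plus strand for Fth1, chr7:45459779-45459807 on the minus strand for Ftl1 and chr1:45925465-45925493 on the minus strand for Slc40a1. Each run of 29 bases below reads 5′ to 3′ along the transcript, with the loop in capitals.
Tfrc-201, match 1: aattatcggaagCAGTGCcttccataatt
Tfrc-201, match 2: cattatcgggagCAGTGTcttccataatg
Tfrc-201, match 3: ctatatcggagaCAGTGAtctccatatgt
Tfrc-201, match 4: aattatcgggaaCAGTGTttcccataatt
Fth1-201: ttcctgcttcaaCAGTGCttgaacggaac
Ftl1-201: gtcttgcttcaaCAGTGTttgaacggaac
Slc40a1-201: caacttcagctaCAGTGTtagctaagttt
No match was found in the transcripts of Slc11a2, Slc25a37, Hmox1, Ncoa4, Ireb2 and Aco1, which says only that these letters are not in those transcripts. A transcript of Ftl1-ps1, a near-identical copy of Ftl1 on chromosome 13, held the same 29 bases as Ftl1. The matches are a description of the reference and were not measured in these cells.

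Barcodes with 500 genes or more and no more than 10% mitochondrial counts were kept as cells, which left 6838 cells with 66045700 counts in the library labelled oil and 6472 cells with 60661486 counts in the library labelled tamoxifen. A count is a UMI, 1 captured transcript molecule, read near its 3′ end whatever its length. A level is given as CPM, the counts scaled to a common library total, with an exact Poisson interval, and a ratio with an exact binomial interval. The 95% intervals hold counting error and nothing else. No replicate library exists, so no test against the spread between animals was possible, and every difference below is one between these 2 libraries. Usp18 itself had more counts with tamoxifen, where the labels place its deletion (log2 ratio 1.45, 1.28 to 1.63). Reads near the 3′ end cannot show whether upstream exons were lost, so these counts do not settle the deletion. Directions are given for the libraries as labelled. Of the barcodes, 14 occurred in both libraries. The sort was checked on marker lists: Kit stood at 171 and 232 CPM, erythroid and mast cell genes were abundant, and lists for neutrophils, B cells and T and NK cells each summed to under 1 CPM in both libraries, with S100a8, Ly6g, Elane, Ngp, Ltf, Cd3g and Klrb1c at 0. The 12 macrophage markers summed to 4.97 and 5.95 CPM, and megakaryocyte markers to 7.12 and 9.83 CPM. In a pool of cells, fewer cells expressing a gene and less RNA per cell cannot be told apart from the summed level.

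To ask whether iron handling differed between the injections, each gene was compared between the libraries. No gene of the 9 with at least 100 UMIs differed 1.5-fold, a size that 3.36% of 10527 genes reached, 2.09% upwards and 1.27% downwards with tamoxifen. The intervals of Ncoa4 and Slc25a37 lay above 0 and those of Tfrc, Slc11a2, Fth1 and Ftl1 below it. Over all genes 19.3% had an interval above 0 and 39.8% below. The median log2 ratio was 0.02 over the 9 genes and -0.06 over all genes tested. Ribosomal protein genes took 24.4% of UMIs with oil and 28.1% with tamoxifen. Scaling by edgeR TMM or DESeq2 median ratios moved every log2 ratio up by 0.04, so small ratios depend on the total. The plot of levels by library shows how close the libraries lay for every gene.

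**Figure D1:**
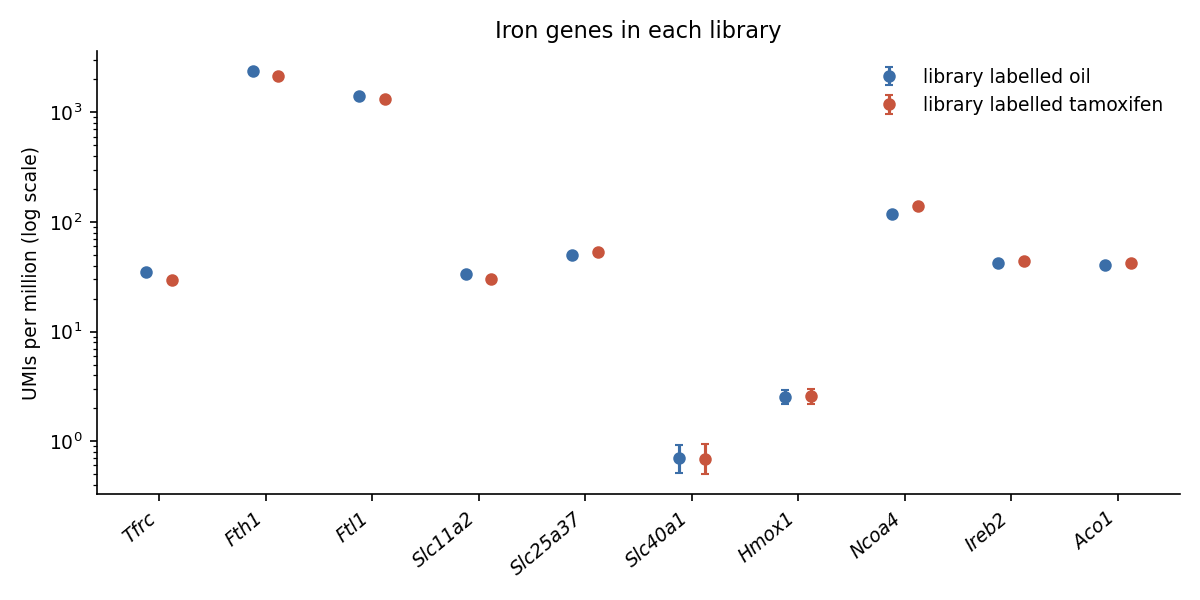
CPM (log scale) of the 10 iron genes in the library labelled oil (blue) and the library labelled tamoxifen (red). Points are library sums and bars are exact Poisson intervals at 95%, smaller than the point for most genes. Within each gene the points lie close together, from about 0.7 CPM for Slc40a1 to 2370 and 2163 CPM for Fth1.

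Among the uptake genes, Tfrc (ENSMUSG00000022797, chromosome 16, plus strand, 32608920 to 32632794) encodes the transferrin receptor. It had 2292 UMIs or 34.7 CPM (33.3 to 36.2) in the library labelled oil and 1784 UMIs or 29.4 CPM (28.1 to 30.8) in the library labelled tamoxifen. The log2 ratio of tamoxifen over oil was -0.24 (-0.33 to -0.15), the lowest of the 10. Slc11a2 (ENSMUSG00000023030, chromosome 15, minus strand, 100387898 to 100425072), which encodes the divalent metal transporter that carries iron out of the endosome, also stood lower. It had 33.2 CPM (31.8 to 34.6) with oil and 29.9 (28.5 to 31.3) with tamoxifen, a log2 ratio of -0.15 (-0.24 to -0.06). Slc25a37 (ENSMUSG00000034248, chromosome 14, minus strand, 69241848 to 69285112) encodes mitoferrin, the carrier that brings iron into the mitochondria of red cell precursors. Its levels were 49.5 CPM (47.8 to 51.2) and 52.8 CPM (51.0 to 54.7), a log2 ratio of 0.09 (0.02 to 0.16) that became -0.0020 when every cell counted the same. Thus on the total of all counts the receptor and the endosomal transporter were lower, and the mitochondrial carrier was near equal. With ribosomal protein and mitochondrial counts dropped, the log2 ratios were -0.16 for Tfrc, -0.07 for Slc11a2 and 0.17 for Slc25a37. No interval was taken there, so no direction is given for Slc11a2 on that smaller total.

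The ferritin subunits were by far the most counted of these transcripts. Fth1 (ENSMUSG00000024661, chromosome 19, plus strand, 9980598 to 9985098), the heavy subunit that oxidises iron, had 156507 UMIs or 2370 CPM (2358 to 2381) with oil and 131192 UMIs or 2163 CPM (2151 to 2174) with tamoxifen. The log2 ratio was -0.13 (-0.14 to -0.12). Ftl1 (ENSMUSG00000050708, chromosome 7, minus strand, 45457944 to 45459884), the light subunit that helps to lay down the iron core, had 1394 CPM (1385 to 1403) and 1332 CPM (1323 to 1341). Its log2 ratio of -0.07 (-0.08 to -0.05) turned to 0.01 when mitochondrial and ribosomal protein genes were left out of the total and to 0.12 with a stricter cell filter, so no direction is given for Ftl1. Reads shared with a near-identical copy can move these values: Ftl1-ps1 was given 1346 UMIs with oil and 827 with tamoxifen (log2 ratio -0.58, -0.71 to -0.45).

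Ncoa4 (ENSMUSG00000056234, chromosome 14, plus strand, 32159865 to 32179855), the cargo receptor that delivers ferritin to the lysosome so that its iron is released, stood higher with tamoxifen. It had 7758 UMIs or 117 CPM (115 to 120) with oil and 8402 UMIs or 139 CPM (136 to 142) with tamoxifen, a log2 ratio of 0.24 (0.19 to 0.28). The sensors differed little. Ireb2 (ENSMUSG00000032293, chromosome 9, plus strand, 54863789 to 54912530), iron regulatory protein 2, had 42.2 CPM (40.6 to 43.8) and 44.4 CPM (42.8 to 46.1), a log2 ratio of 0.08 (-0.0016 to 0.15). Aco1 (ENSMUSG00000028405, chromosome 4, plus strand, 40143081 to 40198338), which is a cytosolic aconitase when it holds an iron-sulfur cluster and iron regulatory protein 1 when it does not, had 40.8 CPM (39.2 to 42.3) and 42.0 CPM (40.4 to 43.6), a log2 ratio of 0.04 (-0.04 to 0.12). For both sensors the interval included 0.

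The export gene Slc40a1 and the inducible heme breakdown gene Hmox1 were barely represented. Slc40a1 (ENSMUSG00000025993, chromosome 1, minus strand, 45908068 to 45926523), the exporter ferroportin, had 46 UMIs in 36 cells with oil and 42 UMIs in 38 cells with tamoxifen, or 0.70 CPM (0.51 to 0.93) and 0.69 CPM (0.50 to 0.94), which is below the count minimum. Hmox1 (ENSMUSG00000005413, chromosome 8, plus strand, 75093621 to 75100589), the inducible heme oxygenase that frees iron from heme, had 168 UMIs in 102 cells and 156 UMIs in 64 cells, or 2.54 CPM (2.17 to 2.96) and 2.57 CPM (2.18 to 3.01). The log2 ratio of Hmox1 was 0.02 (-0.31 to 0.34), but a single cell of the library labelled tamoxifen held 78 of its 156 UMIs. Without the cell with most Hmox1 UMIs in each library the levels were 2.23 CPM (1.88 to 2.62) and 1.29 CPM (1.02 to 1.61), a log2 ratio of -0.79. Both genes were therefore below what these libraries can compare with any precision.

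The share of cells with at least 1 UMI was compared at an equal depth of 3000 UMIs per cell, which left out 508 and 345 shallower cells. Fth1 was seen in 98.3% (97.9 to 98.6) and 97.8% (97.4 to 98.1) of cells and Ftl1 in 96.7% (96.3 to 97.2) and 95.8% (95.2 to 96.3). Without thinning the sign of both differences turned, to 98.2% against 98.6% for Fth1 and 98.6% against 99.1% for Ftl1. Ncoa4 was seen in 32.1% (30.9 to 33.3) of cells with oil and 36.1% (34.9 to 37.3) with tamoxifen at equal depth, and in 61.6% and 65.6% without thinning. Tfrc was seen in 7.94% (7.28 to 8.63) and 6.70% (6.09 to 7.36), or 22.8% and 18.8% without thinning. Slc11a2, Slc25a37, Ireb2 and Aco1 were seen in 7.50% to 13.2% of cells in either library, and the interval of each of these 4 differences included 0. Without thinning Slc11a2 was seen in 24.6% and 21.4%, a difference of -3.17 percentage points (-4.61 to -1.73). Slc40a1 and Hmox1 were seen in under 1% of cells at equal depth, and without thinning Hmox1 was seen in 1.49% (1.22 to 1.81) with oil and 0.99% (0.76 to 1.26) with tamoxifen. Every cell came from the same sort, and so a cell type lacking these genes, which would show the background of free RNA, was not available for comparison.

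The share of cells called in G1 was 40.5% (39.3 to 41.8) with oil and 53.5% (52.2 to 54.7) with tamoxifen, and several iron genes varied strongly with phase. Phases were called from published lists of S and G2M genes, none of which is an iron gene, and the part of free RNA in the calls was not tested. In S and G2M cells together, Tfrc stood at 42.1 CPM against 14.4 in G1 cells with oil, and at 38.7 against 15.7 with tamoxifen, log2 ratios of 1.55 (1.35 to 1.75) and 1.30 (1.13 to 1.47). Slc11a2 followed with log2 ratios of 0.96 (0.79 to 1.14) and 0.78 (0.62 to 0.93). Aco1 was the reverse, at 30.2 CPM in S and G2M against 68.8 in G1 with oil and 31.1 against 59.0 with tamoxifen, log2 ratios of -1.19 (-1.30 to -1.08) and -0.93 (-1.04 to -0.81). Ncoa4 gave -1.10 (-1.16 to -1.03) and -0.98 (-1.04 to -0.92). So 2 of the 9 genes were at least 1.5 times higher in S and G2M in both libraries, beside 13.8% of all genes, and 2 were lower by that factor, beside 21.1% of all genes.

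The ferritin subunits parted by phase. Fth1 was higher in S and G2M, with log2 ratios of 0.38 (0.36 to 0.40) and 0.36 (0.34 to 0.38), whereas Ftl1 was lower, with -0.55 (-0.57 to -0.53) and -0.51 (-0.53 to -0.49). With oil, Fth1 stood at 1958 CPM in G1, 2620 in S and 2512 in G2M, and Ftl1 at 1824, 1273 and 1236 CPM. With tamoxifen, Fth1 stood at 1867, 2455 and 2364 CPM, and Ftl1 at 1636, 1121 and 1158. The counts of the subunits thus lay closer together in G1 than in S and G2M. Ireb2 was lower in S and G2M, by log2 ratios of -0.35 (-0.47 to -0.23) and -0.27 (-0.38 to -0.16). Slc25a37 gave -0.15 (-0.26 to -0.04) and 0.13 (0.03 to 0.24), opposite signs in the libraries.

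Since the phase shares differed between the libraries, the library ratios were taken again within each phase. The log2 ratio of Ncoa4 was 0.04 (-0.03 to 0.10) in G1 and 0.02 (-0.10 to 0.13) in S, against 0.24 in the pool, and 0.22 (0.14 to 0.29) in G2M. That of Tfrc was 0.13 (-0.12 to 0.37) in G1, 0.06 (-0.10 to 0.22) in S and -0.23 (-0.36 to -0.11) in G2M. Slc11a2 gave 0.11 (-0.10 to 0.32), 0.08 (-0.10 to 0.26) and -0.15 (-0.28 to -0.03). For these 3 genes the pooled difference was therefore not seen within G1 or S cells, and within G2M it was about as large as in the pool. Fth1 gave log2 ratios between -0.07 and -0.09 within the phases on totals without globin. Its pooled ratio moved from -0.13 to -0.05 on a reduced total, which leaves out ribosomal protein and mitochondrial genes. That reduced total was not run within phases, so no direction is given for Fth1 there. Ftl1 gave values between -0.09 and -0.18, but the stricter filter and the reduced total that turned its pooled sign were not run within phases, so no direction is given. Aco1 was lower in G1 at -0.22 (-0.34 to -0.11), with intervals that included 0 in S and G2M, and Slc25a37 was higher in G2M at 0.24 (0.13 to 0.35). Whether the phase shares account for the pooled ratios was not tested.

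**Figure D2:**
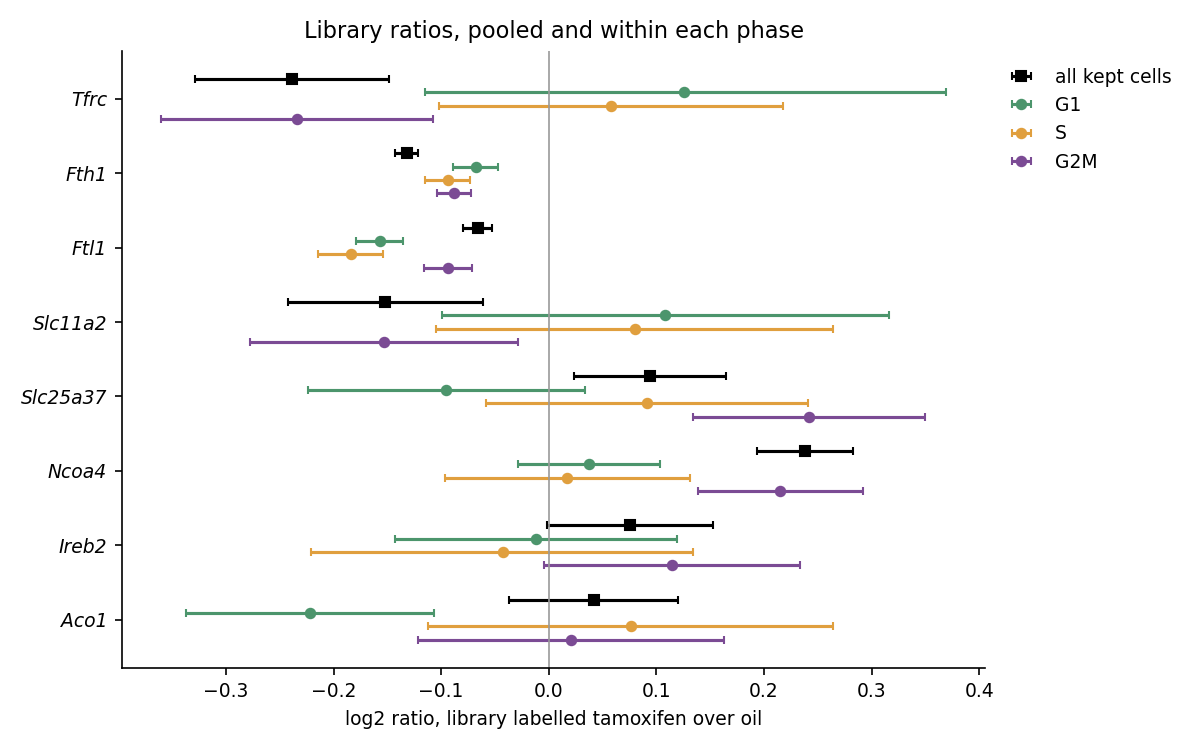
Log2 ratio between the libraries, tamoxifen over oil, for the 8 iron genes with most counts, in all kept cells (black squares) and within G1, S and G2M cells (coloured points). Bars are exact binomial intervals at 95%. For Tfrc, Slc11a2 and Ncoa4 the G1 and S intervals include 0 while the pooled and G2M intervals do not.

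To relate the genes to globin, the 10% of cells of each library with the highest globin share of UMIs were set against the other cells of that library, on a total without globin counts. These were 684 cells with at least 2.09% globin with oil and 648 with at least 2.34% with tamoxifen. The cells just outside had 2.09% and 2.33%. The globin genes themselves, which chose the cells, had library log2 ratios of 0.59 for Hba-a1, 0.82 for Hba-a2, 0.08 for Hbb-bs and -0.01 for Hbb-bt. The globin-high cells were shallower, with medians of 6210.5 UMIs against 8982 with oil and 6297.5 against 8389.5 with tamoxifen. More of them were called in G1, 61.7% against 38.3% and 67.1% against 52.0%. Their median mitochondrial share was 6.60% against 6.86% and 6.45% against 6.88%. Mast cell markers summed to 4309 CPM against 3046 and 3279 against 2897, with Mcpt1 11.2 and 10.5 times higher and Cpa3 lower by log2 ratios of -1.88 and -2.04. Kit was lower, by log2 ratios of -0.51 and -0.55, and the 14 erythroid markers summed to 2785 against 2839 CPM and 2801 against 2577 CPM. The 12 macrophage markers summed to 6.88 against 4.85 CPM and 8.07 against 5.82 CPM. The part of depth, phase and other cells in the values below was not tested beyond the settings named.

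Globin-high cells held more of most iron transcripts. Tfrc, Ftl1, Slc25a37 and Aco1, 4 of the 9 genes tested, were at least 1.5 times higher in both libraries, as were 7.08% of all genes, and none was lower by that factor in both, beside 6.46% of all genes. The median log2 ratio of the 9 genes was 0.66 with oil and 0.72 with tamoxifen, beside -0.03 and -0.06 over all genes tested. The erythroid list was described the same way: 7 of its 12 genes tested were higher by that factor in both libraries, among them Slc4a1, the anion exchanger of the red cell membrane, with log2 ratios of 5.15 and 6.03. Car1 was the 1 lower, by -1.27 and -1.34.

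Slc25a37 had the largest ratio of these 4 genes in both libraries. It stood at 133 CPM (123 to 144) in globin-high cells against 43.5 (41.8 to 45.2) in other cells with oil, and at 135 CPM (125 to 146) against 46.3 (44.5 to 48.1) with tamoxifen, log2 ratios of 1.61 (1.48 to 1.74) and 1.55 (1.42 to 1.67). Tfrc stood at 59.8 CPM (53.0 to 67.2) against 33.0 (31.6 to 34.5) and at 46.5 CPM (40.6 to 53.1) against 28.2 (26.8 to 29.6), log2 ratios of 0.86 (0.67 to 1.04) and 0.72 (0.51 to 0.93). Slc11a2, the other gene of the endosomal route, was lower instead, at 24.3 CPM (20.02 to 29.2) against 34.1 (32.6 to 35.6) and 22.5 CPM (18.4 to 27.2) against 30.7 (29.3 to 32.2), log2 ratios of -0.49 (-0.77 to -0.21) and -0.45 (-0.75 to -0.17). The receptor and the transporter were thus both higher in S and G2M cells but lay on opposite sides in globin-high cells.

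For storage, Ftl1 stood at 2481 CPM (2436 to 2527) against 1321 (1312 to 1330) with oil and at 2687 CPM (2640 to 2734) against 1228 (1219 to 1237) with tamoxifen, log2 ratios of 0.91 (0.88 to 0.94) and 1.13 (1.10 to 1.16). Fth1 differed less, at 3303 CPM (3251 to 3356) against 2314 (2302 to 2326) and 3185 CPM (3134 to 3236) against 2094 (2082 to 2106), log2 ratios of 0.51 (0.49 to 0.54) and 0.61 (0.58 to 0.63). Aco1 stood at 72.0 CPM (64.5 to 80.2) against 38.7 (37.1 to 40.3) and 74.8 CPM (67.2 to 83.0) against 39.5 (37.9 to 41.2), log2 ratios of 0.90 (0.73 to 1.06) and 0.92 (0.75 to 1.08). Ncoa4 was higher by 0.66 (0.56 to 0.77) and 0.54 (0.44 to 0.64). Ireb2, the other sensor, was near level, with 0.13 (-0.08 to 0.33) and -0.03 (-0.24 to 0.18). Slc40a1 had 3 and 6 UMIs in globin-high cells, and neither interval of its ratio, -2.46 to 1.52 and -0.56 to 2.24, left out 0.

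Within G1 cells alone, Tfrc, Slc25a37, Ftl1 and Aco1 kept log2 ratios of at least 0.69 in both libraries, Tfrc reaching 1.49 and 0.98, and Fth1 joined them at 0.72 and 0.68. Slc11a2 came closer to 0 in G1 cells, at -0.37 and -0.15. Within cells of 4000 to 8000 UMIs, a range chosen after the values were seen, with 207 and 223 globin-high cells, the same 4 genes were past 1.5-fold in both libraries. Among the 20% of cells with most globin, Tfrc was no longer past 1.5-fold in both, at 0.52 and 0.64, and Hmox1 was, at 1.20 and 3.60. The cell with most Hmox1 UMIs with oil, 21 of 168, had 1.28% globin and entered only with this wider cut. With tamoxifen the cell with most held 78 of 156. The 20% cut was not rerun without these cells. In cells with at least 1000 genes and at most 5% mitochondrial counts, Slc11a2 was lower by log2 ratios of -0.62 and -0.94, past 1.5-fold in both, and Tfrc was higher by 1.07 and 1.72. The share of all genes past 1.5-fold in globin-high cells is given for the main setting alone. The counts of genes under these other settings therefore have no share to stand beside and are descriptions.

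The library ratio was also taken within the globin groups. Ftl1 had a log2 ratio of tamoxifen over oil of 0.11 (0.08 to 0.15) in globin-high cells and -0.10 (-0.12 to -0.09) in the others, opposite signs. Tfrc was lower in both groups, by -0.36 (-0.62 to -0.10) and -0.23 (-0.32 to -0.13). Ncoa4 gave 0.13 (-0.0079 to 0.27) in globin-high cells, an interval that included 0, and was higher in the others by 0.25 (0.20 to 0.30).

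Along 10 equal bins of cells ordered by globin share the genes followed different courses. Fth1 was higher in every successive bin, from 1632 CPM in the lowest to 3305 in the highest with oil and from 1372 to 3189 with tamoxifen. Slc25a37 ran from 26.9 to 133 CPM and from 27.5 to 135 CPM, with the largest step at the last bin in both. Ftl1 was lowest in bin 3 in both libraries, at 1141 and 1106 CPM, and highest in the last at 2482 and 2688. Ncoa4 had its low point inside the range, at 99.1 CPM in bin 3 with oil and 114 in bin 5 with tamoxifen, with 134 and 180 CPM in the lowest bin and 180 and 196 in the highest. Tfrc was near level at 34.2 to 36.3 CPM from bin 4 to bin 9 with oil before 59.8 in the last, while with tamoxifen it climbed from 19.4 to 46.6 over the whole range. The lowest bin held shallow cells, with medians of 5272.5 and 5167 UMIs.

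**Figure D3:**
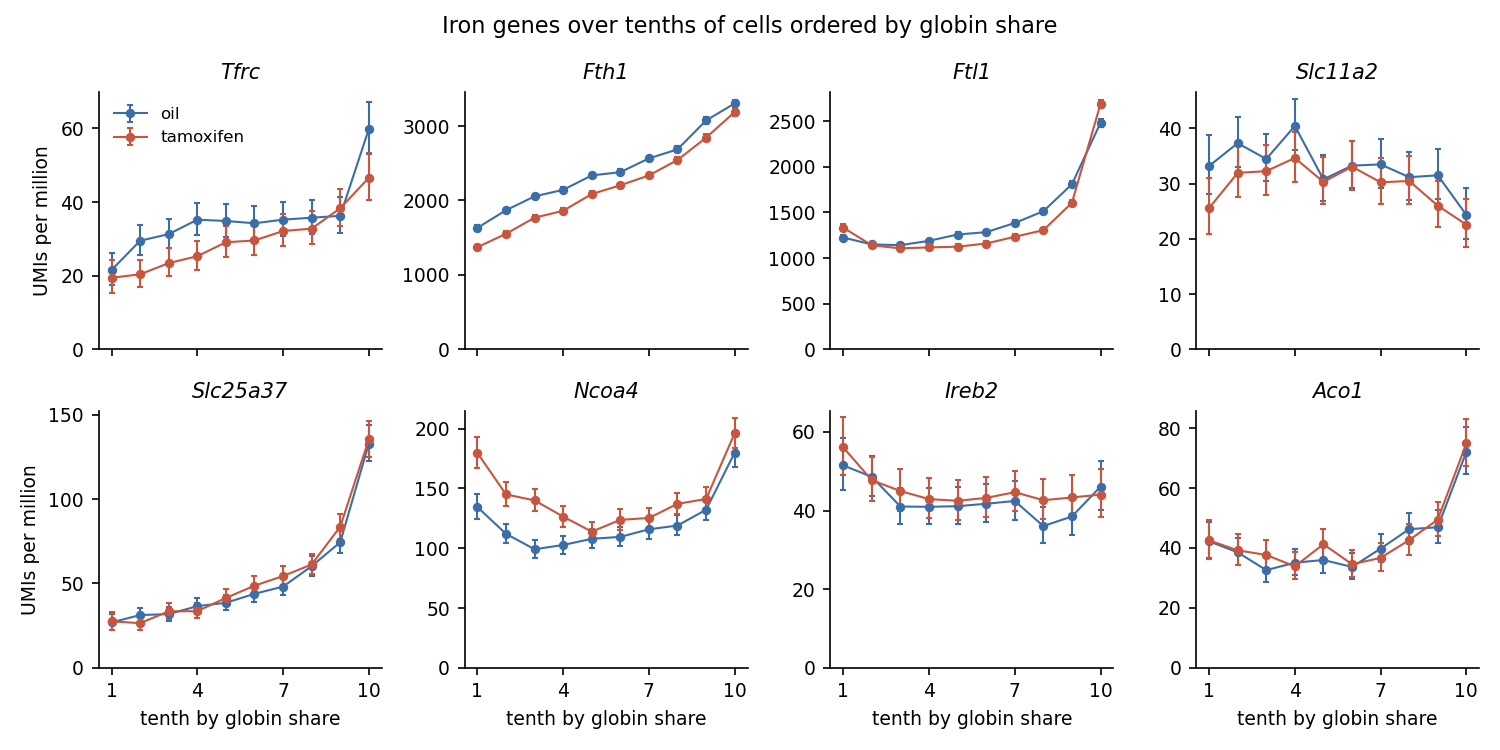
CPM on a total without globin counts of 8 iron genes over 10 equal bins of cells ordered by their globin share, from lowest (1) to highest (10), for the library labelled oil (blue) and the library labelled tamoxifen (red). Bars are exact Poisson intervals at 95% and each vertical axis starts at 0. Slc25a37 reaches 133 and 135 CPM in the last bin, whereas Slc11a2 is lowest there at 24.3 and 22.6 CPM.

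Phase and globin share thus sorted the genes differently, as the plot of both ratios shows. Slc25a37 varied with globin and hardly with phase, Slc11a2 and Tfrc shared the direction by phase but not by globin, and Aco1, Ncoa4 and Ftl1 were higher in G1 and in globin-high cells alike. Across the 30 groups made from 5 globin bins, 3 phases and 2 libraries, Aco1 and Ncoa4 ran together (Pearson r = 0.88) and Aco1 and Slc11a2 ran against each other (r = -0.89). Fth1 ran with Slc25a37 (r = 0.87) and with Tfrc (r = 0.80), whereas Ftl1 ran with Aco1 (r = 0.81), and Fth1 with Ftl1 reached only 0.35. These groups share 2 libraries and their depth, so the correlations are descriptions.

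**Figure D4:**
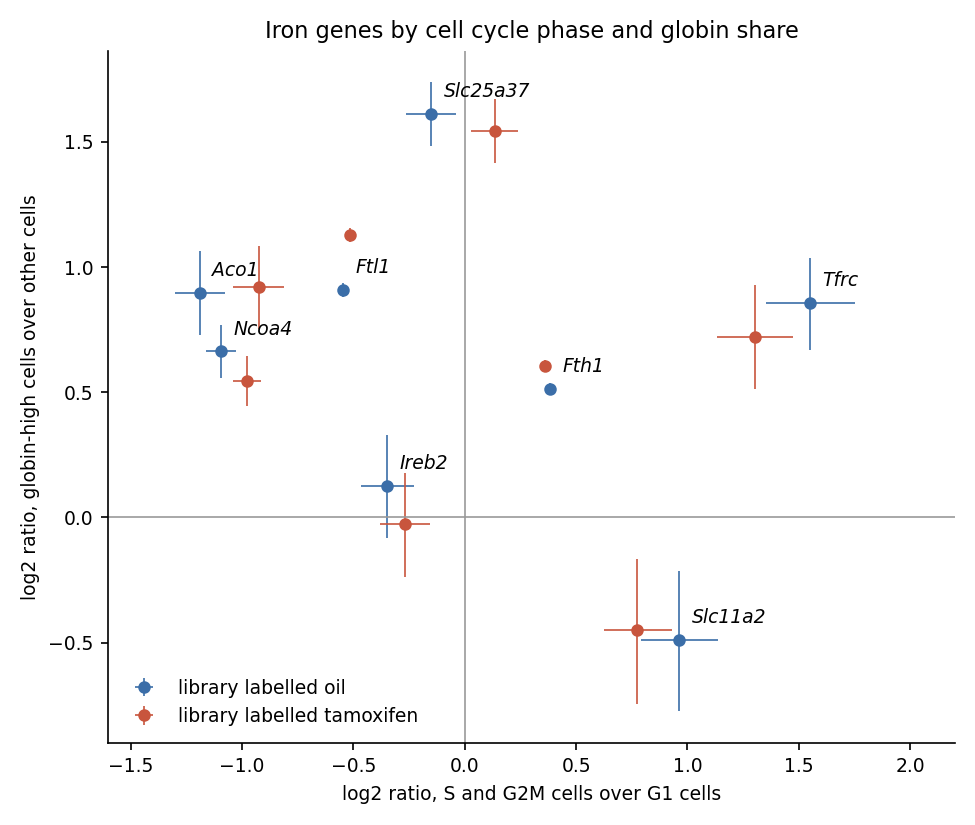
Log2 ratio of S and G2M cells over G1 cells (horizontal) against log2 ratio of globin-high cells over other cells (vertical) for 8 iron genes in the library labelled oil (blue) and the library labelled tamoxifen (red). Bars are exact binomial intervals at 95% in each direction, and gene names stand beside the oil point. Tfrc lies at the upper right, Slc11a2 at the lower right and Aco1 and Ncoa4 at the upper left in both libraries.

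Of 6479 genes with at least 2000 UMIs, those whose levels over the same 30 groups were most like each iron gene were picked by Pearson r. For Slc25a37 they were Cd24a (r = 0.96) and the alpha globin gene Hba-a2 (r = 0.96), whose counts helped to order the cells. For Fth1 they were Tmem14c, a heme synthesis gene that moves a heme precursor across the inner mitochondrial membrane (r = 0.98), and Prdx2, an abundant peroxidase of red cells (r = 0.98). Slc11a2 was most like Cenpp, a centromere protein gene (r = 0.93), and Esco2, a cohesin acetyltransferase active in S phase (r = 0.93). For Tfrc the genes were Psme3 (r = 0.97) and Hpf1 (r = 0.95), for Ftl1 Il4ra (r = 0.96) and Map2k3 (r = 0.95), and for Ncoa4 Fyb (r = 0.98) and Zcchc6 (r = 0.97). For Ireb2 they were Bckdha (r = 0.91) and Bptf (r = 0.90), and for Aco1 Ikzf2 (r = 0.97) and Tln1 (r = 0.96). Slc40a1 and Hmox1 had too few counts.

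The size of the Hmox1 ratio in globin-high cells depended on 1 cell. Hmox1 stood at 3.01 CPM (1.65 to 5.05) against 2.52 (2.14 to 2.96) with oil and at 21.2 CPM (17.3 to 25.8) against 1.01 (0.76 to 1.31) with tamoxifen, log2 ratios of 0.25 (-0.65 to 1.04) and 4.40 (3.91 to 4.89). Without the cell with most Hmox1 UMIs in each library the ratios were 0.47 (-0.44 to 1.26) and 2.21 (1.43 to 2.95). That cell of the library labelled tamoxifen had 14570 UMIs, 3.73% globin, no macrophage marker UMI and an S phase call. It also held the most Fth1 UMIs (347) and the most Ftl1 UMIs (280) of any kept cell of its library, 24740 and 19963 CPM. In the library labelled oil the cell with most Hmox1 UMIs, 21 of 16272, was likewise the first for Ftl1 (243 UMIs) and the third for Fth1 (189 UMIs). It had no UMI of Tfrc, Slc25a37 or Ncoa4, which says little for 1 cell. In that library 1560, 2167 and 4209 of 6838 kept cells had a UMI of these 3 genes.

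Cells with at least 3 Hmox1 UMIs, a limit chosen after these cells were seen, numbered 9 with oil and 3 with tamoxifen. Their median depth was 14077 UMIs against 8620 in the rest with oil, and 9903 against 8209 with tamoxifen. With oil, Fth1 stood at 5731 CPM (5296 to 6193) in the 9 cells against 2378 (2367 to 2390) in the rest, and Ftl1 at 5857 CPM (5417 to 6323) against 1395 (1386 to 1404). With the top cell left out, the other 8 had 4719 CPM (4294 to 5175) of Fth1 and 4302 CPM (3896 to 4738) of Ftl1. With tamoxifen the 3 cells had 15883 and 13015 CPM of the subunits, and the 2 without the top cell had 6923 CPM (5608 to 8455) and 5986 CPM (4768 to 7420). Alas2, the erythroid enzyme that opens heme synthesis, had no UMI in any of these 12 cells. That says little, since the limit of 3 counts was 26.8 CPM in the 9 cells and 108 CPM in the 3 cells. The Alas2 level in the rest was below that limit, at 10.2 CPM with oil and 15.1 CPM with tamoxifen. A macrophage marker UMI was present in 4 of the 9 cells with oil, a larger share than the 155 of the 6829 others. With tamoxifen it was present in none of the 3 cells and in 201 of the 6469 others. With so few cells these values describe the cells alone.

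**Figure D5:**
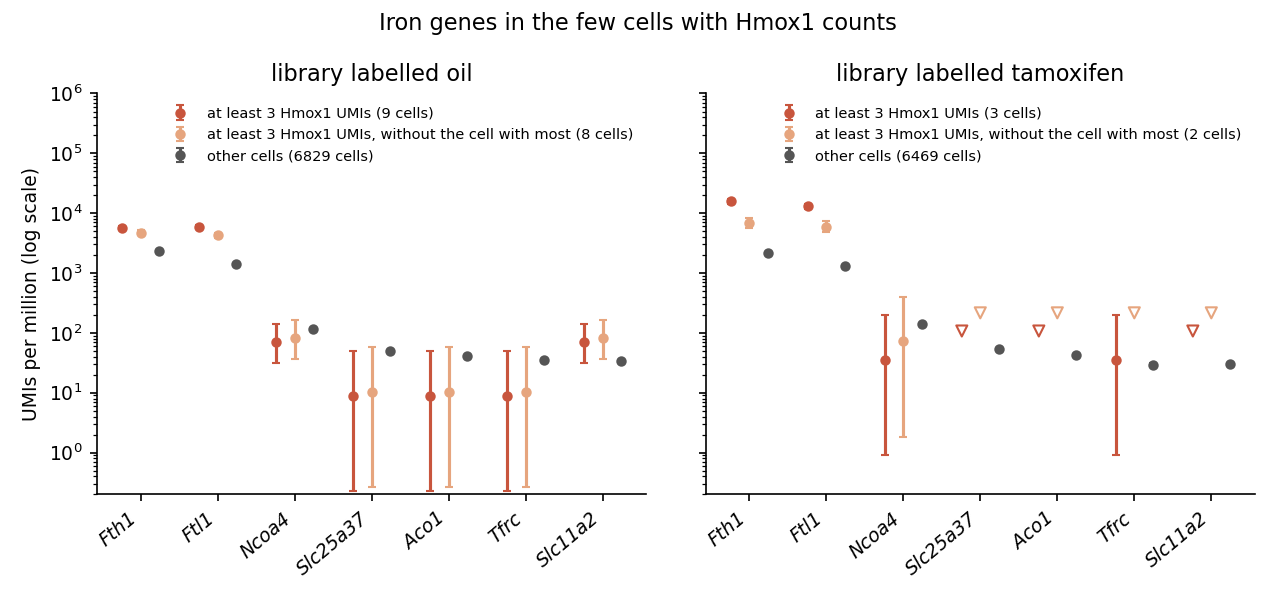
CPM on a total without globin counts (log scale) of 7 iron genes in cells with at least 3 Hmox1 UMIs (red), in the same cells without the 1 cell with most Hmox1 UMIs (light red) and in all other kept cells (grey), for each library. Bars are exact Poisson intervals at 95%, and open triangles mark a limit of 3 counts where no UMI was found. Fth1 and Ftl1 lie above the other cells in both panels, at 5731 and 5857 CPM with oil and 15883 and 13015 CPM with tamoxifen.

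Slc40a1 stood at a higher level in cells with macrophage markers, although most of its UMIs lay in other cells. The 49 cells with at least 2 UMIs of the 12 macrophage markers in the library labelled oil held 18 of its 46 Slc40a1 UMIs, or 33.4 CPM against 0.43 in the other cells. Those 18 UMIs lay in 10 cells, and 5 of them in 1 cell with 19 macrophage marker UMIs. In the library labelled tamoxifen 54 such cells held 13 of 42, in 11 cells, or 20.2 against 0.48 CPM. No interval was taken for these levels. Hmox1 in the same cells stood at 66.7 against 2.02 CPM and 17.1 against 2.42 CPM, whereas Tfrc stood at 27.8 against 34.8 and 29.5 against 29.4 CPM. The part of macrophages or of their free RNA in the Slc40a1 and Hmox1 counts was not tested.

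The remaining genes of iron and heme metabolism were taken as 4 lists. None of their 51 genes with at least 100 UMIs differed 1.5-fold between the libraries, where 3.36% of all genes did. In other iron handling, 14 of the 31 genes found were tested, 3 with an interval above 0 and 7 below, beside 19.3% and 39.8% of all genes. The highest were Nfe2l2, the antioxidant regulator NRF2, at a log2 ratio of 0.25 (0.19 to 0.31), and Mcoln1, a lysosomal channel, at 0.24 (0.05 to 0.42), and the lowest were Steap3, the endosomal ferrireductase, at -0.38 (-0.53 to -0.22), and Pcbp1, an iron chaperone, at -0.23 (-0.26 to -0.20). All 6 genes of heme transport and breakdown tested had an interval below 0, as did 39.8% of all genes, from Abcg2, a porphyrin exporter, and Flvcr1, a heme exporter, at -0.17 (-0.21 to -0.14) and -0.17 (-0.33 to -0.0038), to Blvrb at -0.13 (-0.15 to -0.12) and Blvra at -0.09 (-0.15 to -0.03), the biliverdin reductases. Median log2 ratios were -0.04 for other iron handling, -0.15 for heme transport and breakdown, -0.11 for heme synthesis and -0.11 for iron-sulfur clusters, beside -0.06 over all genes.

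In heme synthesis, where all 13 genes were tested, 2 had an interval above 0 and 8 below, against the same shares of all genes. Alas2 had 10.2 CPM (9.41 to 11.0) with oil and 15.0 CPM (14.0 to 16.0) with tamoxifen, a log2 ratio of 0.56 (0.41 to 0.70), and Fech, which inserts the iron, had 0.23 (0.19 to 0.27). Abcb6 and Alad were lowest, at -0.35 (-0.51 to -0.19) and -0.29 (-0.36 to -0.22). Of 18 iron-sulfur cluster genes tested, beside the same shares of all genes, 1 had an interval above 0, Bola3 at 0.11 (0.08 to 0.15), and 9 below, among them Fdx1, a ferredoxin, at -0.34 (-0.39 to -0.29). Isca1 stood at 0.11 (-0.0065 to 0.22).

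In globin-high cells, 5 of the 13 heme synthesis genes were at least 1.5 times higher in both libraries, where 7.08% of all genes were. Alas2 stood at 103 CPM (93.98 to 113) against 3.15 (2.72 to 3.63) with oil and 153 CPM (142 to 165) against 3.33 (2.87 to 3.85) with tamoxifen, log2 ratios of 5.03 and 5.52, and Abcb10, a mitochondrial transporter that partners mitoferrin, stood higher by 1.12 and 1.10. Alas1, the housekeeping form of the enzyme, gave 0.19 (-0.32 to 0.67) and -0.29 (-0.91 to 0.27), and Abcb6 gave 0.12 (-0.30 to 0.52) and 0.49 (0.06 to 0.89). Of 6 heme transport and breakdown genes, 2 were higher by that factor, Slc48a1, which moves heme into the cytosol, by 0.91 and 1.13, and Blvrb by 0.69 and 0.96, while Flvcr1 and Hmox2 had intervals that included 0. Among 18 iron-sulfur cluster genes, Glrx5 was higher by 0.66 and 0.73 and Fdx1 was lower by -0.90 and -0.82, with Hscb at 0.38 and 0.31 and Lyrm4 at -0.10 and -0.48. None of the 14 other iron handling genes passed that factor in both libraries. Slc39a8, a metal importer, gave 0.43 and 0.33, Bach1, a heme-sensing repressor, gave 0.34 and 0.35, Tfr2, the second transferrin receptor, gave -0.32 and -0.57, and Fbxl5, which targets iron regulatory protein 2 for degradation, gave -0.17 and -0.66.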

How the data were processed

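Single-cell transcriptomes of sorted spleen leukemia cells were measured in 2 libraries, 1 per injection. The deposited values are raw UMI counts, made by the authors from 3′ reads of the Chromium V3 kit with Cell Ranger 3.0.2 on mm10, per the file headers and the study's methods. Barcodes with 500 genes or more and a mitochondrial share up to 10% were kept, no doublets were removed, and counts were summed over cells. Genes with at least 100 UMIs over both libraries entered the ratios (10527 genes). Cells are not replicates, so no p-value is given, and "1.5-fold" is a rule of size. Deepest values have the narrowest intervals, and all intervals and limits cover counting error only. The minimum a count of 0 allows was taken as 3 counts.

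Phases were called by scanpy after each cell was thinned to 3000 UMIs. The ratio and thinning steps were tested on simulated counts. The 10 genes, the 4 iron and heme lists and the marker lists (erythroid, mast cell, macrophage, neutrophil, megakaryocyte, B cell, T and NK cell) were chosen with earlier results of these data known. Named genes are the 10, Usp18, the 2 highest and 2 lowest of each list by library ratio and by globin-high ratio, the globin genes with at least 100 UMIs, the 2 genes most like each of the 10 (log2 of CPM plus 1), and markers. The result for 1 gene that this rule selects and for 1 marker is not given. Of the 31053 gene identifiers, 31011 were found in GENCODE M21, which gave positions and transcripts. Hjv and Ciao2b were not matched by symbol. Alternatives were other cell filters, edgeR TMM and DESeq2 median-ratio scaling, other totals, weights, count minimums, globin limits and thinning depths. Software: scanpy 1.11.5 and scipy 1.17.1 under Python 3.11.15 with pandas 2.3.3, numpy 2.4.6 and matplotlib 3.10.9 for figures, and edgeR 4.0.16 with DESeq2 1.42.0 under R 4.3.3.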

Additional observations from a re-analysis of the deposited data

Results flagged for a closer look

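Barcodes left out by the cell filter, 936 with oil and 839 with tamoxifen, entered no comparison above. Fth1 had 7194 UMIs of 4193876 there with oil and 8043 of 4367186 with tamoxifen, a log2 ratio of 0.10 (0.06 to 0.15), so the interval lay above 0 in these barcodes and below it in the kept cells, where the ratio was -0.13. Tfrc in the same barcodes gave -0.66 (-1.10 to -0.23) from 117 and 77 UMIs.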

How the results depend on the processing

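No paired analysis was possible because the groups share no second library. No member differed 1.5-fold between the libraries under any planned setting. Leaving out the cell with most UMIs of the gene, chosen after seeing the data, gave 1, Hmox1. Of the 51 other iron genes tested, 0 were past 1.5-fold in the main setting, 1 with edgeR TMM, 1 with DESeq2 size factors and 1 on a reduced total (no ribosomal protein or mitochondrial genes). A stricter cell filter (1000 genes, 5% mitochondrial) gave 3 of 45, beside 6.36% of all genes, and no count minimum gave 4 of 60, beside 16.7%. The log2 library ratio changed sign for Ftl1, to 0.12 under the stricter cell filter and 0.014 on the reduced total, and for Slc25a37, to -0.0020 with every cell counting the same. The difference in share of cells changed sign without thinning for Fth1 (0.362 percentage points) and Ftl1 (0.568). The cause was not tested. In globin-high cells 4 or 5 members passed 1.5-fold under each setting, not always the same ones. The share of all genes past that size in globin-high cells is given for the main setting alone. Among the highest 20% Hmox1 replaced Tfrc, with the cell holding most Hmox1 UMIs in each library included. Under the stricter filter 4 were higher and 1, Slc11a2, lower. Depth limits Slc40a1 and Hmox1.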
